A study of Homo sapiens with 6 samples.

Results

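The MYC-MAX network is a set of transcription factors that share a basic helix-loop-helix leucine zipper domain, and 10 of its genes were followed here: *MYC*, *MYCN*, *MYCL*, *MAX*, *MXD1*, *MXD3*, *MXD4*, *MXI1*, *MNT* and *MLXIPL*. They were taken by gene symbol, a rule that uses no measured value, although the family was chosen with earlier results of these data known, and all 10 were among the 22077 symbols of the deposited count table and among the 14162 genes that passed the filter on low counts. RNA-seq was performed on 3 samples of cells with the genotype label over-expression, which carried the TKT expression plasmid pTSB02-GFP-PURO per the study's methods, and on 3 vector control samples with the genotype label wt. TKT is transketolase, an enzyme of the non-oxidative pentose phosphate pathway. The cell line label reads Hu7, a spelling close to Huh7, a human hepatocellular carcinoma line, which is also the line of the study's Results for this experiment, while its Methods name HCCLM3. The methods mention transfection followed by selection and do not say whether a clone or a pool was sequenced. The labels call the libraries replicate biosamples without stating that they came from separate transfections, so the p-values measure only the spread between these samples, which may be technical.

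Libraries held between 30148788 and 37096156 counts. *TKT* averaged 494 ± 23.0 CPM (CPM are counts scaled to a fixed depth with TMM factors, SD, n = 3) in control libraries and 9448 ± 87.99 CPM (SD, n = 3) on overexpression, so the libraries matched their labels, although the counts do not separate the introduced from the endogenous transcript. Of 10 hepatocyte genes, 9 had at least 2831 counts in every library, among them *AFP* and *ALB*, while *APOB* was listed with at most 6 counts. Their summed level was 20170 to 20580 CPM in control libraries and 20730 to 21110 CPM on overexpression, with *FGB* called higher (log2 fold change 0.50) and *HNF4A* lower (-0.15), and the part of this in the results was not tested. Of 10 genes of leukocytes, endothelium and fibroblasts, *PTPRC*, *CDH5*, *COL3A1* and *DCN* were not listed, *CD68*, *CD3E*, *VWF* and *COL1A2* had at most 2 counts in any library, *COL1A1* had at most 29 and *PECAM1* had between 472 and 717. The summed level of these ran from 17.3 to 20.9 CPM in control libraries and from 15.7 to 20.1 CPM on overexpression.

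MYC, MYCN and MYCL activate transcription only as heterodimers with MAX, and the dimers bind the E-box CACGTG. MXD1, MXD3, MXD4, MXI1 and MNT compete for the same partner and the same sites, and they recruit SIN3 corepressors with histone deacetylases, so they act as antagonists of MYC. MLXIPL, also called ChREBP, belongs to a parallel arm that dimerizes with MLX and switches on glycolytic and lipogenic genes when glucose is plentiful, for which the liver is the best known site. *MYCN* is mostly an embryonic and neuronal gene in normal tissue, whereas *MYC* is found in most proliferating cells.

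With TKT overexpression, genes changed in both directions among the activators and among the antagonists. The 3 activator genes split into *MYC*, which rose, *MYCN*, which fell, and *MYCL*, which did not pass the test. Among the 5 antagonists, *MXD1* and *MXI1* rose, *MXD3* fell, and *MXD4* and *MNT* did not pass. *MLXIPL* fell and *MAX* did not pass. In all, 6 of the 10 genes had an adjusted p-value under 0.05 (edgeR's quasi-likelihood test with Benjamini-Hochberg adjustment over 14162 genes), against 10.6% of all tested genes. The 3 that rose compare with 5.69% of tested genes called higher, and the 3 that fell with 4.94% called lower. All 6 called genes had ranges that did not overlap between conditions, as did 28.0% of all tested genes. The 3 with a higher range compare with 14.1% of all tested genes, and the 3 with a lower range with 13.9%. The largest absolute log2 fold change of a member was 0.66, so none had an absolute log2 fold change over 1 together with an adjusted p-value under 0.05, as 0.727% of tested genes did. Bulk RNA cannot tell fewer expressing cells from less RNA per cell.

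**Figure D1:**
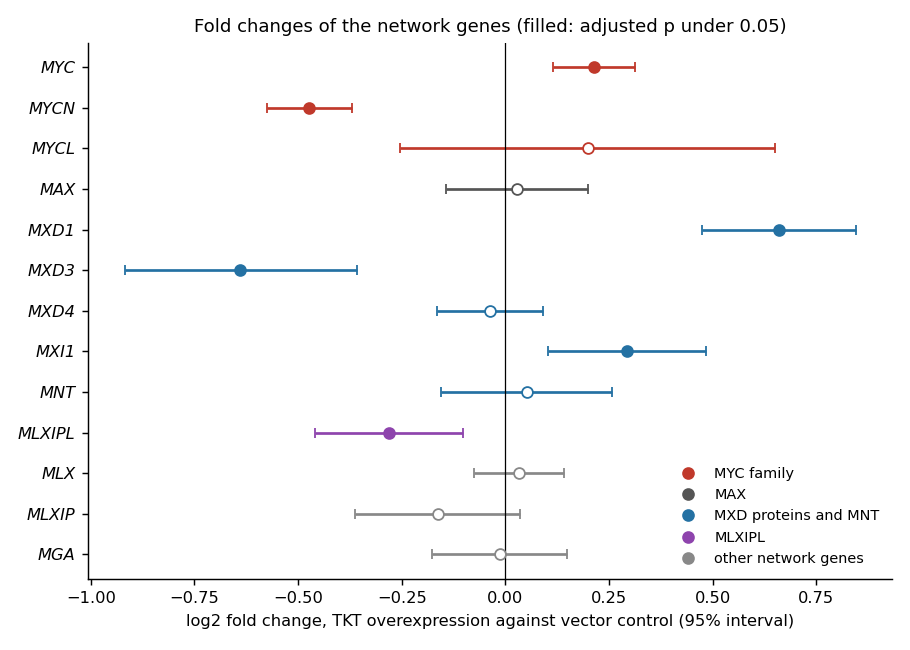
Log2 fold change (x axis) of the 10 members and of *MLX*, *MLXIP* and *MGA* (y axis), TKT overexpression against vector control, 3 libraries each; bars are 95% intervals from edgeR and filled points have an adjusted p-value under 0.05. *MYC*, *MXD1* and *MXI1* lie above 0, *MYCN*, *MXD3* and *MLXIPL* below 0, and the intervals of the other 7 genes include 0.

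*MYC* (chromosome 8, 127735434 to 127741434, plus strand, GENCODE 29 on GRCh38, as are all gene positions here) encodes c-Myc, the network's main activator in dividing cells and the protein whose stability the study examined. Its counts were 3456, 3036 and 3608 in control libraries and 4547, 3804 and 4010 on overexpression. Scaled for depth, these were 110.0, 99.9 and 108 CPM against 123, 123 and 122 CPM. Every overexpressing library lay above every control library, and the 3 overexpressing libraries differed from each other by less than the controls did. The log2 fold change was 0.21 (standard error 0.05, 95% interval 0.11 to 0.31, edgeR adjusted p = 0.00530), a rise of 15.9%. It kept its direction and an adjusted p-value under 0.05 in all 15 alternatives, the highest being 0.0427. The study reported from qRT-PCR, a different assay, that TKT did not alter c-Myc mRNA. The reason for the difference was not tested. By western blot the study reported more c-Myc protein in Huh7 cells overexpressing TKT, a level that RNA does not measure.

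*MYCN* (chromosome 2, 15940564 to 15947007, plus strand) encodes N-Myc, which has much the same DNA binding and partners as c-Myc. It had 118, 114 and 108 CPM in control libraries and 79.2, 82.8 and 83.4 CPM on overexpression. The lowest control value exceeded the highest overexpression value by more than the spread within either condition. With a log2 fold change of -0.47 (standard error 0.05, 95% interval -0.58 to -0.37, edgeR adjusted p = 9.29e-07), it dropped to 0.721 of the control level and had the smallest p-value of the 10 genes. Its adjusted p-value was at most 9.76e-04 over 15 alternatives. *MYCNOS*, an antisense gene that overlaps *MYCN* on the other strand, had 109 to 155 counts in control libraries and 81 to 102 on overexpression, with a log2 fold change of -0.60 (standard error 0.21, edgeR adjusted p = 0.0684). Whether counting used strand is not given in the sources used here, so reads of the pair may be mixed, but *MYCN* had between 2555 and 3707 counts per library.

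*MYCL* (chromosome 1, 39895426 to 39902256, minus strand), the gene of L-Myc, was the least abundant member, with 71, 122 and 133 counts in control libraries and 153, 131 and 111 on overexpression. The conditions overlapped, and the first control library stood apart at 2.26 CPM against 4.02 and 3.96 CPM in the other controls. Its log2 fold change of 0.20 had a 95% interval of -0.25 to 0.65 (edgeR adjusted p = 0.651). Without vector control replicate 1 the value was -0.03.

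*MAX* (chromosome 14, 65006174 to 65102695, minus strand) encodes the partner that both the activators and the antagonists need. It had 24.6, 24.4 and 24.8 CPM in control libraries and 27.6, 25.1 and 22.6 CPM on overexpression. The control libraries nearly coincided, and the overexpressing libraries were spread on either side of them. Its log2 fold change was 0.03 (95% interval -0.14 to 0.20, edgeR adjusted p = 0.885), which leaves room for a change of up to 0.20 on the log2 scale, and it was -0.05 without TKT overexpression replicate 1.

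**Figure D2:**
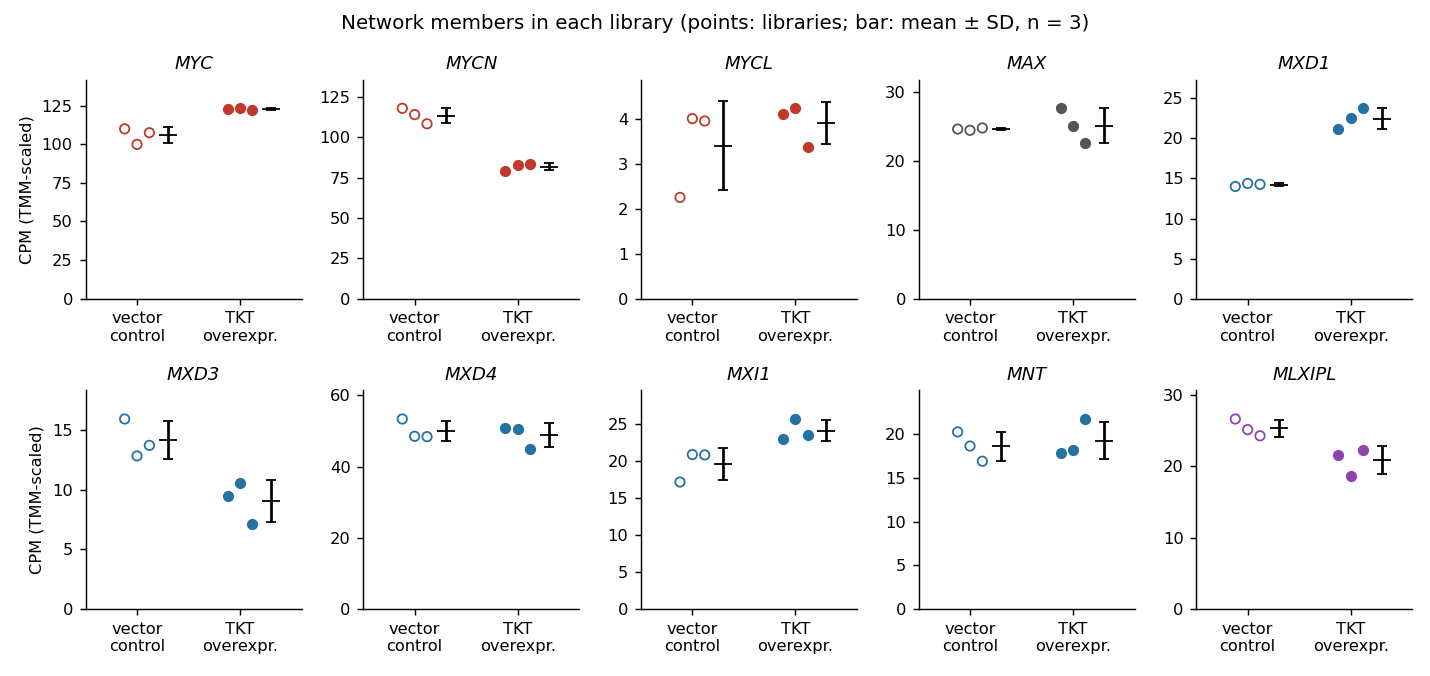
CPM after TMM scaling (y axes, each from 0) of the 10 members in the 3 vector control libraries (open points) and the 3 TKT-overexpressing libraries (filled points), with mean ± SD. The points of the conditions separate for *MYC*, *MYCN*, *MXD1*, *MXD3*, *MXI1* and *MLXIPL* and overlap for *MYCL*, *MAX*, *MXD4* and *MNT*.

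Of the antagonists, *MXD1* and *MXD3* changed most and in opposite directions. The 250 bases before their RefSeq start are shown (GRCh38.p14, read 5′ to 3′ along the gene's strand) with those of *MNT* and *MXD4*, because the members' own binding motif, the palindrome CACGTG, written in capitals, is in the second pair only. RefSeq windows were found for 9 members, 12 windows in all with 3 for *MXI1* and 2 for *MAX*, and *MYC* was left out. These 2 of 12 windows held the motif, against 6.34% of all 35116 windows. A match in this window is a description of the letters and not a site of binding.
MXD1 (chr2:69914859-69915108, plus strand): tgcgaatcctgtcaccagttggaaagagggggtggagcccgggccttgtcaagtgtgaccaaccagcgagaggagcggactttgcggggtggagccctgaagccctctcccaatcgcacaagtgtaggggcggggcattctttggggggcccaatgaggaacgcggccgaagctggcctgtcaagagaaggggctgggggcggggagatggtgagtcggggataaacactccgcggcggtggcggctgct
MXD3 (chr5:177312753-177313002, minus strand): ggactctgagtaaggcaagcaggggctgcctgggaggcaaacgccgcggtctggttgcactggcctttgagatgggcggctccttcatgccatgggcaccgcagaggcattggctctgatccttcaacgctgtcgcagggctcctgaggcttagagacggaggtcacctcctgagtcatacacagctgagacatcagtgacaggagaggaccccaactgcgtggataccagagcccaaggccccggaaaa
MNT (chr17:2401061-2401310, minus strand): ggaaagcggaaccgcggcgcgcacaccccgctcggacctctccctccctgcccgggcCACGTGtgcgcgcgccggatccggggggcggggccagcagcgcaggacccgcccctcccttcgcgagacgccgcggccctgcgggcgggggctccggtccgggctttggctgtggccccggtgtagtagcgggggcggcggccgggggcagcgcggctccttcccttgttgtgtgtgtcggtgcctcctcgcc
MXD4 (chr4:2262110-2262359, minus strand): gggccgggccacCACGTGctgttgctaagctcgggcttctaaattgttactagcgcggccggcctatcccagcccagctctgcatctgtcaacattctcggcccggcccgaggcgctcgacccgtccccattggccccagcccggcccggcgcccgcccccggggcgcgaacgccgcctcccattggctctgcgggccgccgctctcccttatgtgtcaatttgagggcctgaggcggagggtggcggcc
*MNT* and *MXD4* carry the motif 193 and 238 bases before the start, and the windows of the other 7 members lack it, among them called and uncalled genes. The RefSeq start of *MXD1* lies inside the GENCODE gene, which also holds transcripts that begin further upstream.

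*MXD1* (chromosome 2, 69897688 to 69942945, plus strand), also known as MAD1, is the antagonist best known for rising when cells leave the cycle and differentiate. It had 440, 437 and 479 counts in control libraries and 785, 694 and 781 on overexpression. In CPM these were 14.0, 14.4 and 14.3 against 21.2, 22.5 and 23.7. The control libraries were tightly grouped, and the lowest overexpressing library was well above them. The log2 fold change of 0.66 (standard error 0.09, 95% interval 0.47 to 0.85, edgeR adjusted p = 2.93e-05) was a 1.58-fold rise. Over 15 alternatives the adjusted p-value was at most 0.00289. *SNRNP27*, which overlaps *MXD1* on the same strand, had 770 to 891 counts in control libraries and 774 to 1003 on overexpression.

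*MXD3* (chromosome 5, 177301461 to 177312757, minus strand) differs from the other antagonists in being linked to S phase and proliferating cells. It had 15.9, 12.8 and 13.7 CPM in control libraries and 9.50, 10.6 and 7.15 CPM on overexpression. The conditions did not overlap, although the spread within each was wider than for *MXD1*. On the log2 scale the change was -0.64 (standard error 0.13, 95% interval -0.92 to -0.36, edgeR adjusted p = 0.00357), or 1.56-fold lower. Over 15 alternatives the adjusted p-value was at most 0.0347. *MXD3* overlaps *RAB24* on its own strand and *PRELID1*, with 7421 to 9172 counts, on the other, so its reads carry the same doubt about strand. The ratio of *MXD1* to *MXD3*, per length, went from 0.659, 0.839 and 0.779 in control libraries to 1.67, 1.59 and 2.48 on overexpression.

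*MXI1* (chromosome 10, 110207605 to 110287365, plus strand), the gene of the MXD protein also called MAD2, had 17.2, 20.9 and 20.9 CPM in control libraries and 23.1, 25.7 and 23.5 CPM on overexpression. The ranges did not overlap, and the first control library was the lowest. The log2 fold change was 0.29 (standard error 0.09, 95% interval 0.10 to 0.48, edgeR adjusted p = 0.0423), a rise of 22.5%. This call was close to the threshold and was past it in 8 of 15 alternatives. The adjusted p-value was 0.0734, 0.160 and 0.0668 without TKT overexpression replicates 1, 2 and 3, and 0.226 without vector control replicate 1. The direction was the same in all 15.

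*MXD4* (chromosome 4, 2247432 to 2262294, minus strand) was the most abundant antagonist and had 53.4, 48.6 and 48.5 CPM in control libraries and 51.0, 50.6 and 44.9 CPM on overexpression. The conditions overlapped, and its log2 fold change of -0.04 had a 95% interval of -0.17 to 0.09 (edgeR adjusted p = 0.776). *MNT* (chromosome 17, 2384060 to 2401118, minus strand), the antagonist found in most cell types, had 20.2, 18.6 and 16.9 CPM in control libraries and 17.8, 18.2 and 21.7 CPM on overexpression. Its ranges overlapped as well, with a log2 fold change of 0.05 and a 95% interval of -0.15 to 0.26 (edgeR adjusted p = 0.819). The sign of both values changed when 1 library was left out. For *MXD4* it was 0.019 when replicate 3 of TKT overexpression was left out and 0.009 when vector control replicate 1 was. For *MNT* it was -0.04 when replicate 3 of TKT overexpression was left out and -0.015 when vector control replicate 3 was.

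*MLXIPL* (chromosome 7, 73593194 to 73624543, minus strand), the gene of the glucose-responsive factor ChREBP, had 26.6, 25.1 and 24.3 CPM in control libraries and 21.6, 18.6 and 22.3 CPM on overexpression. All overexpressing libraries were below all control libraries. The log2 fold change was -0.28 (standard error 0.09, 95% interval -0.46 to -0.10, edgeR adjusted p = 0.0391), that is, it fell by 17.7%. The adjusted p-value was under 0.05 in 6 of 15 alternatives, and it was over 0.05 without any of the libraries except TKT overexpression replicate 3, with 0.0750 and 0.183 without TKT overexpression replicates 1 and 2, and 0.164, 0.0640 and 0.0514 without vector control replicates 1, 2 and 3. The direction stayed the same. Its partner gene *MLX* had a log2 fold change of 0.03 (95% interval -0.08 to 0.14), *MLXIP*, the gene of the related factor MondoA, one of -0.16 (-0.36 to 0.04), and *MGA*, a large MAX-binding repressor, one of -0.01 (-0.18 to 0.15). Of these 3 further network genes edgeR called 0, with 0 at an unadjusted p-value under 0.05 and 0 called in DESeq2.

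Levels of different genes can be compared only per length, for which the deposited FPKM values (fragment counts scaled for gene length and for depth) were used. *MYCN* was the highest member in control libraries, with 41.0 ± 1.82 FPKM (SD, n = 3), followed by *MYC* with 17.2 ± 0.719. Then came *MXD4* with 7.25 FPKM, *MLXIPL* with 5.24, *MAX* with 3.91, *MXI1* with 3.31, *MXD3* with 2.96, *MXD1* with 2.23, *MNT* with 2.12 and *MYCL* with 0.684. Of the neighbours in this order, *MXI1* and *MXD3* overlapped, as did *MXD1* and *MNT*. On overexpression *MYCN* stood at 29.6 ± 0.987 FPKM and *MYC* at 20.02 ± 0.146, in the same order and without overlap. The gene lengths behind the FPKM values are not given in the sources used here, and the order of genes rests on them. In vector control replicate 1, *MYC* had 3456 counts and 17.8 FPKM, and *MYCN* had 3707 counts and 42.4 FPKM. In control libraries these genes thus differed in FPKM mainly through the lengths used for them. Whether those lengths are apt was not tested. In CPM, which is not scaled for length, *MYCN* and *MYC* averaged 113.5 and 105.8 in control libraries. On overexpression they averaged 81.8 and 122.6 CPM, the reverse of the order in FPKM. *MLXIPL*, *MXI1*, *MAX* and *MXD1*, with means between 3.53 and 4.32 FPKM, each overlapped the next in that order, while all libraries of *MXD1* lay below all those of *MXI1* and of *MLXIPL*. *MXD3*, above *MXD1* in control libraries, was below it on overexpression.

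**Figure D3:**
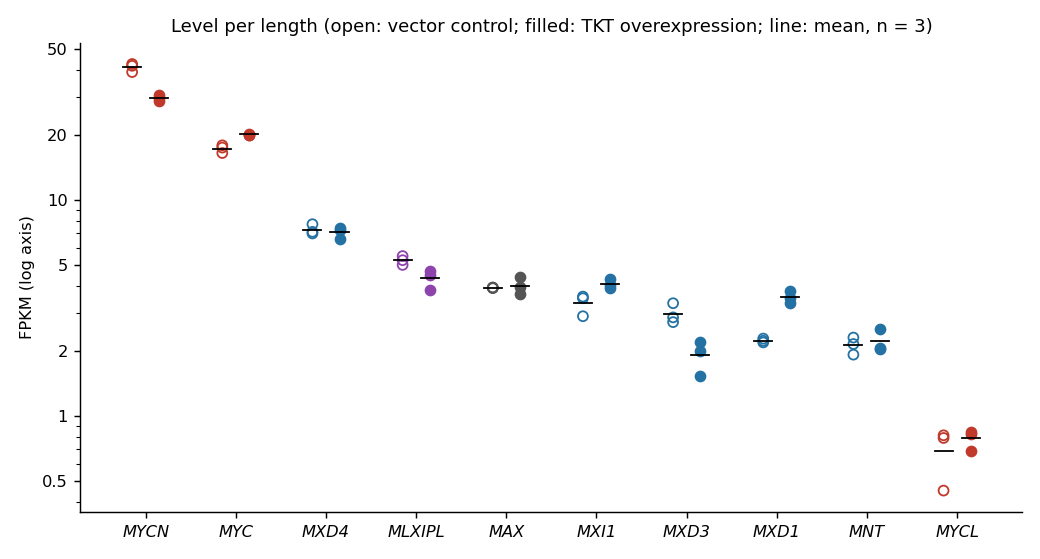
FPKM (y axis, log scale) of the 10 members in each vector control (open) and TKT-overexpressing (filled) library, ordered by the control mean; lines are means of 3 libraries. *MYCN* and *MYC* stand above all other members in both conditions, at 41.0 and 17.2 FPKM in control libraries.

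The summed level of the MYC family was lower on overexpression in every library. The FPKM of *MYC*, *MYCN* and *MYCL* added up to 60.7, 58.8 and 57.1 in control libraries and to 49.5, 50.4 and 51.5 on overexpression. The share of *MYC* in this sum was 29.4%, 27.9% and 30.5% in control libraries and 40.4%, 39.5% and 39.2% on overexpression. The antagonists, *MNT* included, added up to 18.4, 17.8 and 17.5 FPKM in control libraries and to 18.6, 19.3 and 18.5 FPKM on overexpression. Within this sum *MXD1* and *MXI1* rose, *MXD3* fell, and *MXD4*, the largest contributor, did not pass the test. The ratio of MYC family to antagonist transcripts was 3.30, 3.31 and 3.27 in control libraries and 2.65, 2.61 and 2.79 on overexpression. These sums describe transcripts over members chosen by name, are given without a test, and say nothing of protein levels. The sums, the share of *MYC* and the ratio also rest on the gene lengths behind the FPKM values.

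**Figure D4:**
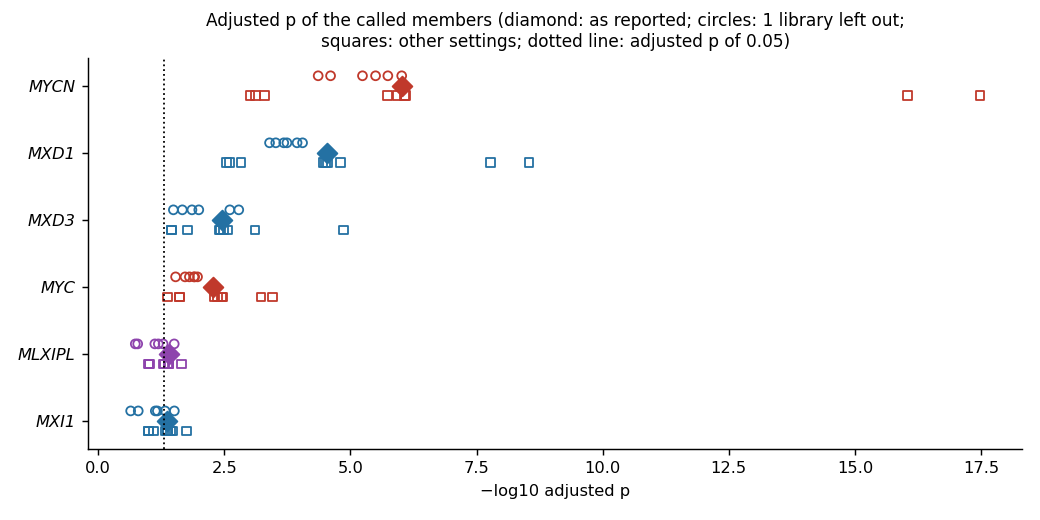
Adjusted p-value as −log10 (x axis) of the 6 called members (y axis) as reported (diamonds), with each library left out in turn (circles) and under the 9 other settings (squares). *MYCN*, *MXD1*, *MXD3* and *MYC* stay to the right of the dotted line at 0.05 in all 15, whereas *MXI1* does in 8 and *MLXIPL* in 6.

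Of the genes that act on the network's proteins, the shares called were near the 10.6% of all tested genes. They were 13.3% of the coactivators, 5.26% of the corepressors and 5.0% of the genes of MYC protein turnover. Of 15 tested coactivators of MYC, *CREBBP*, a histone acetyltransferase, rose with a log2 fold change of 0.19 and *RUVBL2*, an ATPase of chromatin remodelling complexes, fell by 0.17 on the log2 scale. Of 19 genes of the SIN3 and NCOR corepressors, which the MXD proteins and MNT recruit, *HDAC1* fell by 0.12 on the log2 scale and 18 did not pass. Of 20 genes of MYC protein turnover, only *SKP2* was called, with a log2 fold change of -0.14, and 19 did not pass. *SKP2* encodes a subunit of a ubiquitin ligase for MYC. The medians of these lists were -0.03, -0.02 and -0.03, beside 0.00 for all tested genes. The 4 calls were each lost in at least 7 of 15 alternatives, and in edgeR their adjusted p-values lay between 0.0235 and 0.0452. Without TKT overexpression replicate 1, and likewise without vector control replicate 1, none of the 4 was called by edgeR.

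Few genes that MYC is known to switch on were called higher. Of 66 tested genes in 3 such lists, 1 rose and 15 fell, so 24.2% were called against 10.6% of all tested genes. Of the 66, 47 had a log2 fold change below 0. These lists, like those of the next paragraphs, were chosen with earlier results of these data known. Their shares describe the chosen genes only. The study reported Myc targets enriched in hepatocellular carcinoma with high TKT expression, which is a different comparison. Ribosome biogenesis, the best known output of MYC, had 3 of 32 genes called, or 9.38%, all lower, among them *BOP1* (log2 fold change -0.21, edgeR adjusted p = 0.00672), a factor of the large ribosomal subunit. Of 22 genes of metabolism and growth, 7 fell and none rose. These were led by *SLC1A5*, a glutamine transporter (-0.23, edgeR adjusted p = 0.00123), *SHMT2*, a mitochondrial enzyme of one-carbon metabolism (-0.21), *ODC1*, the rate-limiting enzyme of polyamine synthesis (-0.17), and *PTMA*, prothymosin alpha (-0.18). Of 12 cell cycle genes, *CCND1*, which encodes cyclin D1, rose (0.18, edgeR adjusted p = 0.00159) and 5 fell, with *MCM5*, a subunit of the replicative helicase, at -0.21, *E2F1* at -0.20 and *CDC25A*, the gene of a phosphatase that activates cyclin-dependent kinases, at -0.15. All of these changes were small beside those of *MXD1* and *MXD3*. The cell cycle calls dropped from 6 to 2 without TKT overexpression replicate 1, and to 3 without either vector control replicate 1 or vector control replicate 3. Those of metabolism and growth dropped from 7 to 4 without vector control replicate 1. Those of ribosome biogenesis dropped from 3 to 1 if replicate 1 of either condition was left out. Leaving out replicate 3 of either gave 2 calls, 1 higher and 1 lower. In this list DESeq2 called 1 gene higher and 4 lower, as did the fit without a filter. Upper-quartile factors gave 1 higher and 2 lower. Library totals only, and a mean CPM of at least 1, each gave 1 higher and 3 lower. With limma on FPKM at either pseudocount no gene of ribosome biogenesis was called, *BOP1* having an adjusted p of 0.0606 and 0.0567. Metabolism and growth then had 5 calls and the cell cycle list 3 and 4.

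Genes that MYC and its cofactors are known to repress changed in both directions. Of 11 tested, 5 rose and 3 fell, so 72.7% of the list, also chosen with earlier results known, was called, beside 10.6% of all tested genes. *GADD45A*, a stress-induced growth arrest gene, had 28.6 ± 2.88 CPM in control libraries and 51.7 ± 3.13 CPM on overexpression (SD, n = 3), with a log2 fold change of 0.85 (standard error 0.07, edgeR adjusted p = 4.32e-08). *THBS1*, the gene of the secreted angiogenesis inhibitor thrombospondin 1, rose by 0.69 on the log2 scale, *NDRG1* by 0.31 and *CDKN2B*, which encodes the inhibitor p15, by 0.40. The cell cycle inhibitor genes *CDKN1A* and *CDKN2C*, named here after their values were seen, fell, with log2 fold changes of -0.54 and -0.52. Inhibitors of cyclin-dependent kinases were thus among both the genes that rose and those that fell.

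Targets of ChREBP and of MondoA, the *MLXIPL* arm, gave 2 higher and 4 lower of 13 tested, so 46.2% of the list was called, beside the same 10.6%. *TXNIP*, a glucose-sensing gene that restrains glucose uptake, nearly reached the 2-fold threshold, with 12.9 ± 1.05 CPM in control libraries and 25.7 ± 1.27 CPM on overexpression (SD, n = 3) and a log2 fold change of 0.99 (standard error 0.09, edgeR adjusted p = 1.28e-07). *KLF10* rose by 0.72 on the log2 scale. The lipogenic enzyme genes *SCD* and *FASN* fell by 0.38 and 0.31 on the log2 scale (edgeR adjusted p = 9.84e-08 and 2.02e-06). *ACLY* and *ACACB*, also named after their values were seen, fell as well. These 4 encode enzymes of fatty acid metabolism and changed in the direction of *MLXIPL*. Other genes of lipid synthesis in the list did not pass the test, and *TXNIP* and *KLF10* went the opposite way. Of those that did not pass, again named after their values were seen, *ELOVL6* had a log2 fold change of -0.085 and *ME1* one of -0.001. *ACACA* had -0.72 with a standard error of 0.73, and 8.4 ± 5.4 CPM in control libraries (SD, n = 3), so its change was left undetermined. Between 5 and 6 of these calls were made with any 1 library left out.

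**Figure D5:**
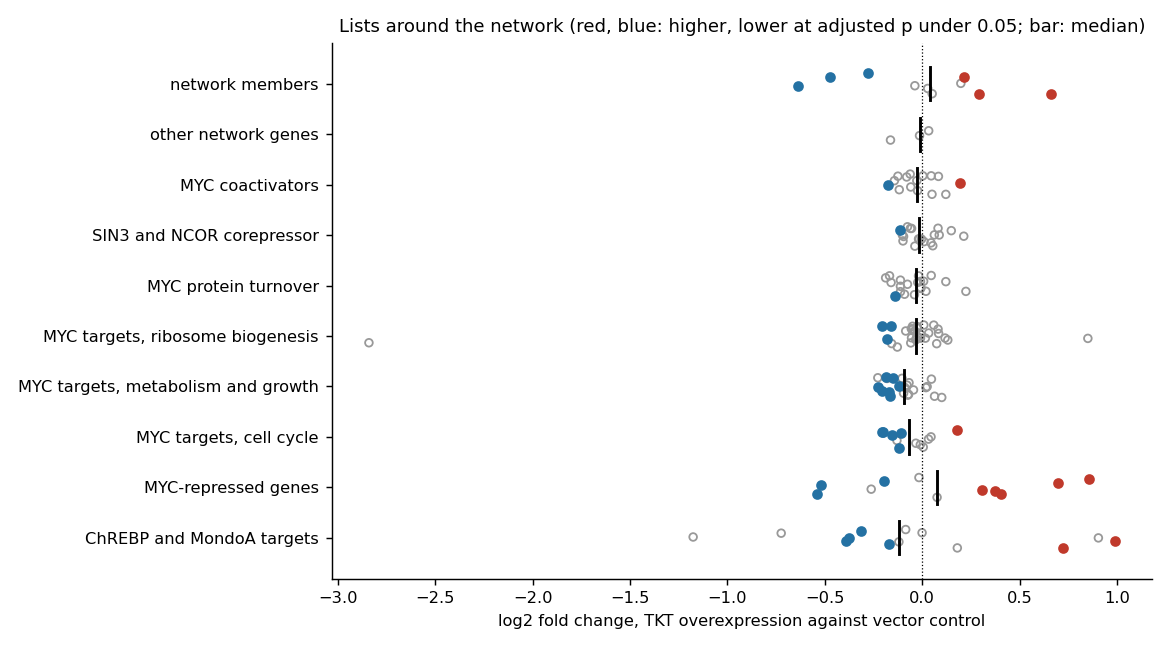
Log2 fold change (x axis) of each tested gene (points) of the 10 members and of 9 gene lists around them (y axis), TKT overexpression against vector control; filled points have an adjusted p-value under 0.05 in edgeR and bars are list medians. The medians of the 3 lists of MYC targets lie between -0.09 and -0.03, and the point at -2.84 is *FBL*, which was not called.

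Some rows of the table, named here after their values were seen, hold very low counts for genes that growing cells use. *LDHA*, a MYC target of glycolysis, was listed with 2 to 6 counts, *SMARCB1* with 0 to 2 and *PRPS2* with 0 to 6, and *NOP2* with 15 to 61. *FBL*, the gene of the nucleolar protein fibrillarin, varied from 465 to 4374 counts among control libraries and from 149 to 486 on overexpression, and was not called (edgeR adjusted p = 0.284). A low listed count therefore cannot be read as absence of the transcript, and why these rows are low was not tested. Of the 10 network genes *MYCL* had at least 71 counts in every library and the other 9 had at least 235, which does not show how completely their reads were counted.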

How the data were processed

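RNA-seq libraries of 3 TKT-overexpressing and 3 vector control samples were grouped by their genotype labels. The authors deposited a table of raw gene counts and a table of FPKM, each with 1 column per library. The submitters' processing notes name fastp v0.22.0, HISAT2 v2.1.0 and hg38, the study's methods name featureCounts, and the annotation and strand setting are not given in the sources used here. No column of per-sample values was left out. The deposited counts were fitted in edgeR (v4.0.16, R v4.3.3) with TMM factors, a filter that keeps genes with a sufficient count (filterByExpr, minimum count 10) and quasi-likelihood F tests, and p-values were adjusted over all tested genes after Benjamini-Hochberg, with a threshold of 0.05. The script was tested on simulated data. The FPKM values deposited by the authors served to compare levels between genes and in limma (v3.58.1). The common biological coefficient of variation was 0.113. The members and the gene lists were chosen with earlier results of these data known. Genes named are the members, up to 4 called genes of each list with the smallest p-values and *TKT*, and others are marked where named. Gene positions come from GENCODE 29 and sequences from RefSeq (GRCh38.p14). Alternatives were DESeq2 (v1.42.0), other scaling factors, no filter, a mean CPM of at least 1, a replicate block, limma on log2(FPKM + 1) and log2(FPKM + 0.1), and each library left out in turn. No libraries were found to be duplicates.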

Additional observations from a re-analysis of the deposited data

How the results depend on the processing

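*MYC*, *MYCN*, *MXD1* and *MXD3* kept their direction and an adjusted p-value under 0.05 in all 15 alternatives. The other calls were less stable. *MXI1* missed the threshold with limma on log2(FPKM + 1) (log2 fold change 0.24, adjusted p = 0.102) and log2(FPKM + 0.1) (0.29, adjusted p = 0.101), and ranged from 0.20 to 0.34 with 1 library left out. *MLXIPL* missed it with library totals only (-0.28, adjusted p = 0.0507) and with limma (-0.23 and -0.28, adjusted p = 0.0999 and 0.0977), and ranged from -0.33 to -0.21 with 1 library left out. Of the uncalled members, the log2 fold change of *MYCL* ranged from -0.0274 to 0.331, that of *MAX* from -0.048 to 0.0989, that of *MXD4* from -0.0712 to 0.0187 and that of *MNT* from -0.0443 to 0.116 with 1 library left out, so each changed sign. The cause was not tested.

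Replicate numbers are shared between the groups, but libraries of the same number did not deviate together (correlations of deviations from the group means -0.0019, -0.0252 and 0.0156), and not every library correlated best with its own number. With the replicate block, *MXI1* had a log2 fold change of 0.30 (adjusted p = 0.0812) and *MLXIPL* one of -0.28 (adjusted p = 0.0968), 697 instead of 1505 genes were called, 67 instead of 103 past a 2-fold change, and 17 instead of 34 genes of the gene lists, among them 0 of ribosome biogenesis (*BOP1* at adjusted p = 0.061), 4 of metabolism and growth and 2 of the cell cycle list. No other call on a member changed.

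All genes called numbered 827 and 826 with limma at either pseudocount and 791 to 1586 with 1 library left out, with 791 without TKT overexpression replicate 1. Calls past a 2-fold change were 63 in DESeq2, 160 without a filter, 13 and 66 with limma and 74 to 128 with 1 library left out. The gene lists held 20 and 21 calls with limma and 19 to 36 with 1 library left out. Scaling choices moved the median of all genes by at most 0.0124 on the log2 scale. With 3 libraries a group, the 95% intervals given for *MYCL*, *MAX*, *MXD4* and *MNT* hold changes that remain compatible with the data. They do not give the smallest change that could have been detected.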
